A study of Danio rerio with 6 samples.

Results

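The genes described here code for voltage-gated ion channels and their structural relatives: potassium channels, calcium channels, sodium channels and the hyperpolarization-activated, cyclic nucleotide-gated (HCN) channels. They were chosen by symbol alone, as every gene whose name begins with kcn, cacn, scn and a digit, or hcn and a digit, which gave 96 of the 21217 genes tested. Of these 54 were potassium channel genes, 26 calcium channel genes, 14 sodium channel genes and 2 HCN genes. Whole Tuebingen zebrafish embryos had been kept in pentachlorophenol (PCP), an organochlorine biocide and uncoupler of oxidative phosphorylation, from shortly after fertilization. The treated groups were 10L (5 μg/l, 10 hours post-fertilization or hpf), 10H (200 μg/l, 10 hpf), 24L (5 μg/l, 24 hpf) and 24H (200 μg/l, 24 hpf), and the controls of the same ages, 10C and 24C, received 0 μg/l. All groups, controls included, were kept in DMSO, the vehicle of PCP. The embryos of a group were pooled into 1 library.

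A voltage-gated channel has a pore-forming alpha subunit whose charged segments move with the membrane potential, and smaller auxiliary subunits that set how the pore opens, closes and reaches the membrane. Sodium channels carry the upstroke of the action potential, potassium channels end it and hold the resting potential, and calcium channels couple depolarization to contraction, transmitter release and transcription. Inward rectifier (Kir) and 2-pore-domain (K2P) potassium channels lack the voltage sensor and carry background or transport currents in epithelia as well as in excitable cells. In zebrafish the first excitable tissues, the trunk muscle and the first neurons, differentiate during the segmentation period, which lies between the ages sampled.

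The deposited values were counts scaled per library, and every value was a whole number of reads times the value of 1 read, which lay between 0.862 in 24H and 1.07 in 24C. Libraries held between 47409208 reads (24C) and 59864868 reads (24H). Below, reads are given per library, a fold change (FC) is the ratio of scaled values, followed by its 95% Clopper-Pearson interval, and “rose” and “fell” are used of genes that passed 2-fold with an unadjusted two-sided exact binomial p under 0.05. With 1 library per group the sequencing held no replicate check: test and interval cover counting error only and compare 2 libraries, not 2 conditions. The study also ran replicated quantitative PCR (qRT-PCR) at the high dose on selected genes, among them the channel genes kcnc3b and scn1ba. The doses of an age share their control library, so their FCs are not independent. Since whole embryos were pooled, fewer cells of a type and less RNA per cell cannot be told apart. Libraries were matched by age in hours, and a difference in stage at equal age cannot be told apart from these. The study proposes delayed development from its 24 hpf data, which was not tested here. No transcript lengths were used, so levels are compared between libraries and never between genes.

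Channel genes were thinly covered at 10 hpf and better covered at 24 hpf. Their median was 8 reads in 10C, 9 in 10L and 10.5 in 10H, whereas the 24 hpf libraries had medians of 48 in 24C, 42.5 in 24L and 35.5 in 24H. In 24C 84 of the 96 had at least 10 reads, against 46 in 10C. The number at 0 reads was 1 in 24C and 15 in 10C. The scaled reads of the 96 summed to 10641 in 24C and 4861 in 10C.

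Between the controls, 57 of the 96 channel genes were higher at 24 hpf and 6 were lower (24C against 10C), where 28.6% of all genes rose and 18.2% fell. The median log2 FC of the 77 members with at least 10 reads on average in these libraries was 2.09, against 0.07 over all genes so filtered. Sodium channels rose in 11 of 14, calcium channels in 15 of 26, potassium channels in 31 of 54 and HCN channels in 0 of 2. The members that fell were kcnk1, kcnip3, cacna2d4a, scn12aa, scn4bb and kcne4. They belonged to the potassium, calcium and sodium groups.

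With PCP, 24H was the library in which the most members were called. There 30 of 96 fell and 12 rose compared with 24C, where 16.4% of all genes fell and 11.9% rose. Their median log2 FC (79 members with at least 10 reads on average) was -0.29, against -0.03 over all genes. Of the 57 members that rose from 10C to 24C, 26 fell and 3 rose in 24H. Of the 6 that fell from 10C to 24C, 3 rose in 24H and 0 fell. These counts share the 24C library and were not set against all genes. In 24L 7 fell and 3 rose, beside 4.18% and 3.5% of all genes, and the median was 0.01. In 10H 6 fell and 18 rose, beside 6.33% and 6.69% of all genes. In 10L 6 fell and 8 rose, beside 2.39% and 3.65% of all genes. The median log2 FC was 0.18 in both 10 hpf comparisons, over 48 members in 10H and 47 in 10L, against 0.02 and -0.02 over all genes. Over members with at least 100 reads on average the 10H median was below 0, at -0.34. Many of the calls at 10 hpf rested on few reads, and among members with at least 10 reads on average 11 rose in 10H and 5 in 10L, where 7.92% and 4.18% of all genes so filtered rose, and 3 fell in 10L, beside 2.19%. With Benjamini-Hochberg adjusted p from the exact binomial test, 5 rose in 10L, beside 3.09% of all genes. Among the 18 that rose in 10H, cacna1ab, cacna1ba, cacnb4b, kcnc3b, kcnf1a, kcnh5, kcnh5a, kcnk13b, kcnt1 and kcnt2 had at most 23 reads there. The 6 that fell in 10H were hcn2, kcnh2, cacnb3b, kcnc3a, kcne4 and kcnd3, the last with 0 reads in 10H.

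**Figure D1:**
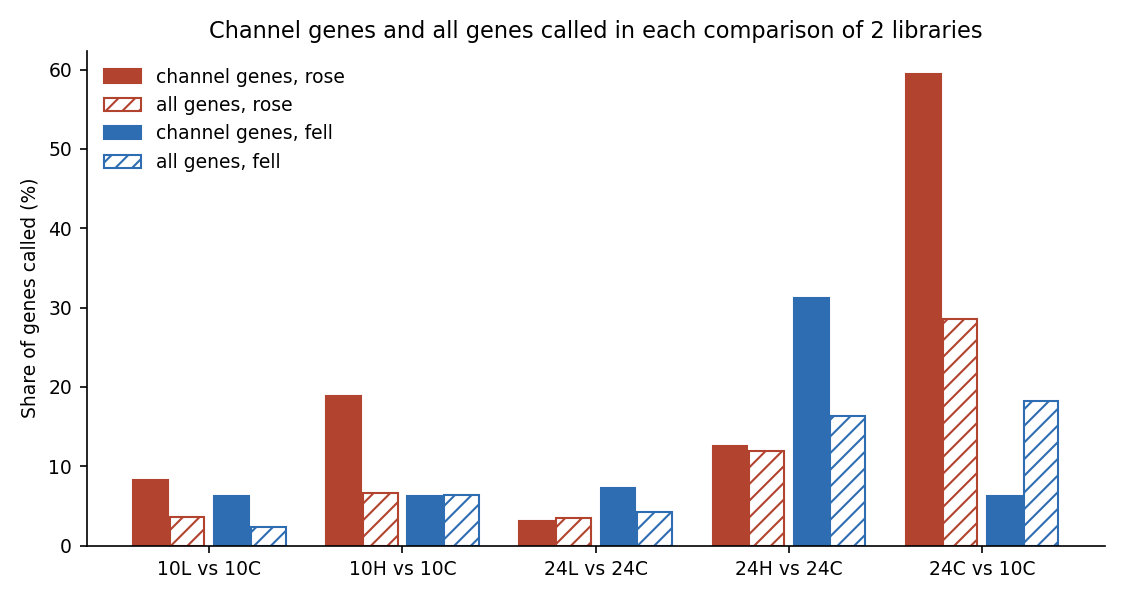
Share of genes called (%, vertical axis) in each of the 5 comparisons of 2 libraries, as filled bars for the 96 channel genes and hatched bars for all 21217 genes, red for genes that rose and blue for genes that fell. In 24H against 24C 31.2% of channel genes and 16.4% of all genes fell, and in 24C against 10C 59.4% of channel genes and 28.6% of all genes rose.

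By class, and beside 16.4% of all genes that fell and 11.9% that rose, the calls in 24H were as follows, with no test between classes. Sodium channel beta subunits fell in 4 of 6 and calcium channel gamma subunits in 2 of 3. Pore-forming Kv subunits fell in 10 of 28 and Kv auxiliary subunits in 3 of 7. K2P channels rose in 2 of 6 and fell in 1. By ion, 6 of 14 sodium, 7 of 26 calcium and 17 of 54 potassium channel genes fell, and 1, 4 and 6 rose. The summed scaled reads of the sodium channel genes were 907 in 24H and 1946 in 24C, a ratio of 0.466. Those of the calcium channel genes gave a ratio of 0.797, and those of the potassium channel genes a ratio of 0.997. Such sums weigh genes by their reads, and the K2P genes within the potassium group had a ratio of 2.00. If the reads of a gene in such pools varied with a coefficient of variation of 0.4, which these data cannot show, edgeR's exact test would keep 15 of the 30 genes that fell and 5 of the 12 that rose, beside 7.2% and 4.28% of all genes. These 15 were cacna1sa, cacng2b, kcna2, kcnab2, kcnc2, kcnd3, kcnf1b, kcnh7, kcnj1, kcnk18, kcnmb2, kcnq3, scn1bb, scn2b and scn4ba, and the 5 were cacna1f, cacna2d4a, hcn2, kcnma1b and kcnq1. In 24L it would keep 2 that fell and 0 that rose, beside 0.905% and 0.754% of all genes. In 10H it would keep 3 that fell and 6 that rose, beside 1.72% and 1.56%, and in 10L 2 that fell and 3 that rose, beside 0.424% and 0.773%. Between the controls it would keep 46 that rose and 3 that fell, beside 20.7% and 7.44% of all genes.

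**Figure D2:**
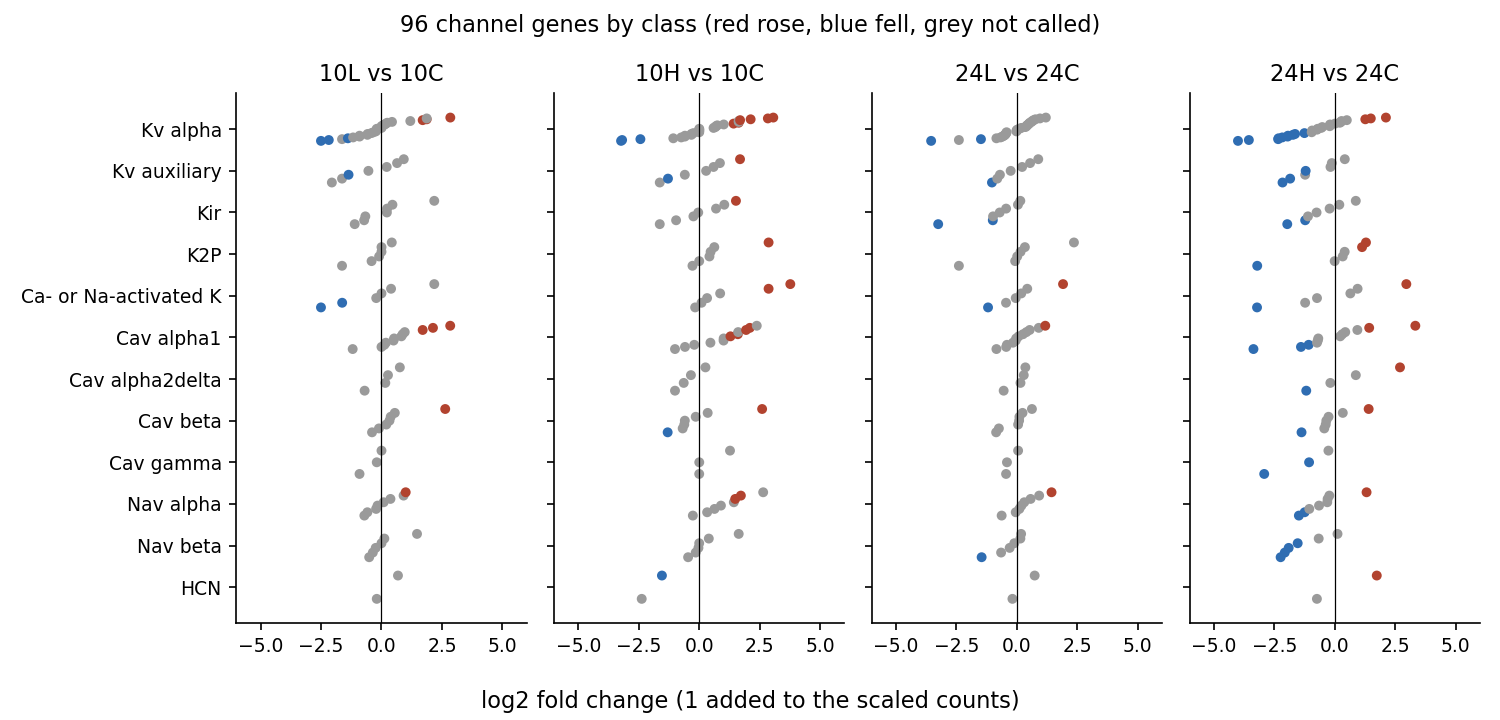
log2 FC (horizontal axis, 1 added to the scaled counts) of the 96 channel genes by class (vertical axis) in 10L against 10C, 10H against 10C, 24L against 24C and 24H against 24C, 1 point per gene, red where the gene rose, blue where it fell and grey where it was not called. The 24H panel holds 30 blue points and 12 red ones, and 4 of the 6 sodium channel beta subunits lie left of 0 in blue.

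Of the pore-forming sodium channel genes, which number 8, scn8ab and scn1lab fell in 24H and scn12aa rose. The gene scn8ab, a zebrafish copy of SCN8A, which in mammals codes for the channel of the axon initial segment, had 13 reads in 10C, 32 in 10L and 25 in 10H, followed by 205 in 24C, 228 in 24L and 107 in 24H. It rose in 10L, where the reads were few (FC 2.08, 1.06 to 4.31). It fell in 24H, with an FC of 0.42 (95% interval 0.33 to 0.534), and in 24L the count was close to that of the control, with an FC of 1.07 (95% interval 0.884 to 1.3). Its duplicate scn8aa had 5 reads in 10C, 8 in 10L and 4 in 10H, followed by 394 in 24C, 465 in 24L and 312 in 24H, and did not pass 2-fold in 24H (FC 0.638, 0.548 to 0.742). The gene scn1lab, a zebrafish relative of the human epilepsy gene SCN1A, had 132 reads in 24C, 88 in 24L and 58 in 24H and fell in 24H (FC 0.354, 0.255 to 0.486). Its relative listed as scn1a had 48 reads in 24C, 95 in 24L and 51 in 24H and was not called in 24H (FC 0.856, 0.566 to 1.3). In each pair 1 copy passed the threshold in 24H. The difference in FC within a pair was not tested.

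The remaining pore-forming sodium channel genes did not fall in 24H. The gene scn4ab, a copy of SCN4A, the skeletal muscle channel gene of mammals, had 13 reads in 10C, 9 in 10L and 45 in 10H, followed by 53 in 24C, 68 in 24L and 53 in 24H. It rose in 10H (FC 3.47, 1.84 to 7.01) and was not called in 24H (FC 0.806, 0.54 to 1.2). The other copy, scn4aa, never exceeded 5 reads. The gene scn12aa had 34 reads in 10C, 43 in 10L and 97 in 10H, followed by 13 in 24C, 38 in 24L and 42 in 24H, and was called in 3 of the 4 PCP comparisons. It rose in 10H (FC 2.86, 1.92 to 4.36), in 24L (FC 2.82, 1.47 to 5.77) and in 24H (FC 2.6, 1.37 to 5.28), and its counts in 24L and 24H were alike. It was the sodium channel gene that rose in 24H, and all its counts at 24 hpf were small. The gene scn12ab had 15 reads in each of 24C, 24L and 24H.

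The beta subunits, membrane proteins with 1 immunoglobulin domain that modulate gating and bind other cells, fell in 4 of 6 members in 24H. The gene scn1ba had 83 reads in 10C, 107 in 10L and 81 in 10H, followed by 569 in 24C, 479 in 24L and 244 in 24H. Its 24H count lay below those of both other 24 hpf libraries, and it fell in 24H (FC 0.345, 0.296 to 0.402). Its duplicate scn1bb had 129 reads in 24C, 124 in 24L and 42 in 24H, with 24L level with the control, and fell in 24H (FC 0.262, 0.181 to 0.374). The gene scn2b had 0 reads in 10C, 2 in 10L and 2 in 10H, followed by 121 in 24C, 45 in 24L and 31 in 24H. It was near absent at 10 hpf and lower at both doses at 24 hpf, with an FC of 0.359 (95% interval 0.249 to 0.509) in 24L and an FC of 0.206 (95% interval 0.134 to 0.308) in 24H. The gene scn4ba had 0 reads in the 3 libraries of 10 hpf, 40 reads in 24C, 26 in 24L and 11 in 24H, and fell in 24H (FC 0.222, 0.103 to 0.44). Of the remaining beta subunits scn3b had 82 reads in 24C, 94 in 24L and 64 in 24H and was not called in 24H (FC 0.629, 0.446 to 0.883), and scn4bb, which was higher at 10 hpf (50 reads in 10C), had 17 reads in 24C, 20 in 24L and 23 in 24H. Over the 6 genes the summed scaled reads were 358 in 24H and 1025 in 24C.

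**Figure D3:**
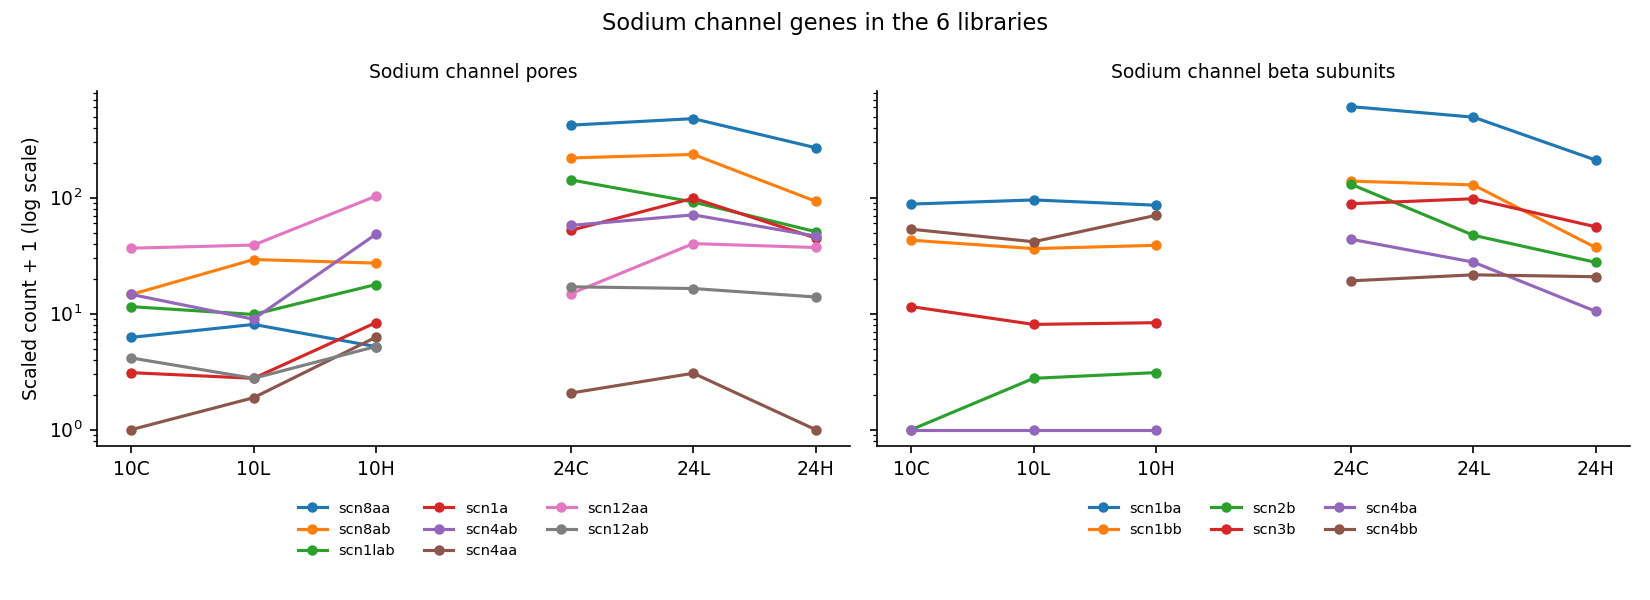
Scaled counts plus 1 (vertical axis, log scale) of the 8 pore-forming sodium channel genes (left) and the 6 beta subunit genes (right) in the 6 libraries, 1 point per library, with lines joining the doses of 1 age from low to high. In 24H 4 of the 6 beta subunits and scn8ab and scn1lab lie below 24C by more than 2-fold, and scn12aa lies above it.

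Of 16 neuron markers listed for comparison 15 were found among the genes. Of these 12 fell in 24H and 0 rose, and the summed scaled reads of the 15 were 17841 in 24C, 13830 in 24L and 7060 in 24H. None of them was at 0 in 24H or 24C. Their part in the counts of scn8ab, scn1lab and the other channel genes that fell in 24H was not tested.

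Of the calcium channel genes, those for subunits of the skeletal muscle channel differed in their calls. The genes cacna1sa and cacna1sb are zebrafish copies of CACNA1S, which codes for the pore and voltage sensor of excitation-contraction coupling. The first had 0 reads in 10C, 0 in 10L and 4 in 10H, followed by 306 in 24C, 233 in 24L and 36 in 24H, so nearly all of its signal came at 24 hpf. It fell in 24H (FC 0.0948, 0.0652 to 0.134) and was not called in 24L (FC 0.734, 0.616 to 0.873). The second, cacna1sb, had 14 reads in 10C, 19 in 10L and 12 in 10H, followed by 499 in 24C, 544 in 24L and 373 in 24H, and did not pass 2-fold in 24H (FC 0.602, 0.525 to 0.69). The gene cacng1, which codes for the gamma subunit of the skeletal muscle channel, had 0 reads at 10 hpf and 1056 reads in 24C, 1133 in 24L and 1096 in 24H. Its counts at 24 hpf lay close together, with an FC of 0.836 (95% interval 0.768 to 0.911) in 24H, and against the floor of 3 counts in 10C it was at least 359-fold higher in 24C. The beta subunit gene cacnb1 had 123 reads in 24C, 132 in 24L and 193 in 24H (FC 1.26, 1 to 1.6 in 24H), and the alpha2delta subunit gene cacna2d1a had 228 reads in 24C, 262 in 24L and 520 in 24H (FC 1.84, 1.57 to 2.16 in 24H). Neither was called in 24H, and both point estimates were above 1. Of these 5 genes 1 fell in 24H.

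Skeletal muscle markers fell in 12 of 16 in 24H, where 1 rose, the muscle regulator gene myog. Their summed scaled reads were 631858 in 24C, 359153 in 24L and 113474 in 24H, and none was at 0 in these libraries. Among the ryanodine and IP3 receptor genes, which code for calcium release channels of internal stores, 1 of 10 fell in 24H and 2 rose. The one that fell was ryr3, with 176 reads in 24H and 963 in 24C (FC 0.147). The part of muscle content in the cacna1sa result was not tested.

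Pore-forming calcium channel genes of neurons and heart had calls in both directions. The gene cacna1ab, a copy of CACNA1A, which codes for the P/Q-type channel of synapses, had 4 reads in 10C, 18 in 10L and 18 in 10H, followed by 65 in 24C, 60 in 24L and 30 in 24H. It rose at 10 hpf at both doses (FC 3.79, 1.25 to 15.4 in 10L and FC 4.51, 1.49 to 18.3 in 10H), where 10C had 4 reads, and fell in 24H (FC 0.372, 0.233 to 0.581). Its duplicate cacna1aa had 62 reads in 10C, 131 in 10L and 153 in 10H, followed by 143 in 24C, 145 in 24L and 109 in 24H, rose in 10H (FC 2.47, 1.83 to 3.38) and was not called in 24H (FC 0.614, 0.474 to 0.793). Of the N-type genes cacna1ba and cacna1bb, neither was called at 24 hpf, and cacna1ba rose at both doses at 10 hpf, where 10C had 4 reads. The cardiac and smooth muscle gene cacna1c had 38 reads in 24C, 90 in 24L and 59 in 24H and rose in 24L (FC 2.28, 1.55 to 3.43) but was not called in 24H (FC 1.25, 0.818 to 1.93). Its relative cacna1da, whose product serves hair cells and pacemaking, had 91 reads in 24C, 52 in 24L and 53 in 24H and fell in 24H (FC 0.469, 0.328 to 0.665).

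The pore-forming genes cacna1g and cacna1f rose in 24H. The T-type gene cacna1g, whose channel opens at low voltages, had 1 read in 10C, 9 in 10L and 5 in 10H, followed by 62 in 24C, 121 in 24L and 209 in 24H. Its counts at 24 hpf were higher at the higher dose, with an FC of 1.88 (95% interval 1.37 to 2.6) in 24L, which was not called, and an FC of 2.72 (95% interval 2.04 to 3.67) in 24H. The entry cacna1f, named for the photoreceptor channel, had 23 reads in 10C, 39 in 10L and 101 in 10H, followed by 12 in 24C, 15 in 24L and 161 in 24H. Its high counts were those of the 200 μg/l libraries of both ages, with an FC of 4.4 (95% interval 2.78 to 7.25) in 10H and an FC of 10.8 (95% interval 6.02 to 21.4) in 24H. This entry was not matched in the RefSeq names used here. Another entry, which RefSeq names cacna1fb and the rule on symbols did not take in, had 636 reads in 10C, 407 in 10L and 872 in 10H, followed by 51 in 24C, 99 in 24L and 125 in 24H, and was called in none of the PCP comparisons. It was looked at after the values of cacna1f were seen. Among further entries outside the rule, looked at afterwards, cacna1ha rose in 24H (42 reads in 24C, 132 in 24H, FC 2.53). The entries cacna1ea (FC 0.217) and cacna1ib (FC 0.474) fell there, and the other pore-forming calcium channel entries were not called. Retina and lens markers fell in 5 of 8 in 24H and 0 rose, with 2 of the 8 at 0 reads there and summed scaled reads of 3805 in 24H and 17069 in 24C. Their part in the cacna1f and cacna2d4a results was not tested.

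Auxiliary calcium channel subunits also went both ways. The gene cacnb4b, a beta subunit gene whose mouse counterpart is mutated in the epileptic lethargic strain, had 3 reads in 10C, 28 in 10L and 23 in 10H, followed by 824 in 24C, 509 in 24L and 395 in 24H. It fell in 24H (FC 0.386, 0.342 to 0.436), and in 24L it lay between these libraries without a call (FC 0.595, 0.532 to 0.666). At 10 hpf it rose at both doses, where 10C had 3 reads. The beta subunit gene cacnb2b had 21 reads in 24C, 34 in 24L and 71 in 24H and rose in 24H (FC 2.72, 1.65 to 4.67), whereas its duplicate cacnb2a had 349 reads in 24C, 425 in 24L and 335 in 24H (FC 0.773, 0.664 to 0.901 in 24H). The alpha2delta gene cacna2d4a, whose mammalian counterpart serves photoreceptor synapses, had 277 reads in 10C, 396 in 10L and 177 in 10H, followed by 21 in 24C, 28 in 24L and 176 in 24H. It was low in 24C compared with 10C (FC 0.0773, 0.0471 to 0.121) and rose in 24H (FC 6.75, 4.28 to 11.2), where its count still lay below that of 10C. The entry cacna2d4 had 23 reads in 24C, 16 in 24L and 12 in 24H and fell in 24H (FC 0.42, 0.191 to 0.88). The alpha2delta gene cacna2d3 had 156 reads in 24C, 197 in 24L and 171 in 24H and was not called. The gamma subunit genes cacng2a and cacng2b are copies of CACNG2, which codes for stargazin, an auxiliary subunit of AMPA receptors. The copy cacng2b had 85 reads in 24C, 66 in 24L and 13 in 24H and fell in 24H (FC 0.123, 0.063 to 0.222), and cacng2a had 53 reads in 24C, 40 in 24L and 31 in 24H and fell in 24H by less (FC 0.471, 0.292 to 0.748). Outside the rule, among entries looked at afterwards, cacng4b, cacng5b and cacng6b fell in 24H. The other gamma subunit entries were not called there.

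**Figure D4:**
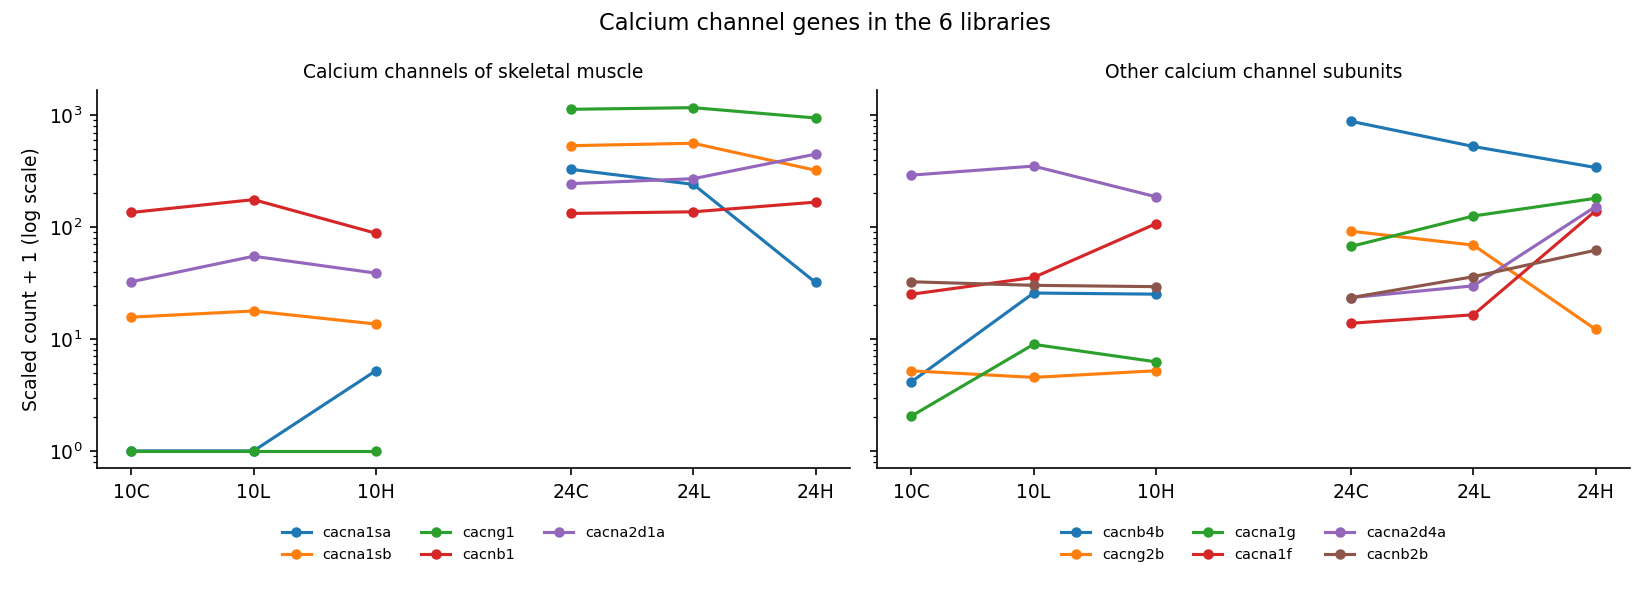
Scaled counts plus 1 (vertical axis, log scale) of 5 genes for the skeletal muscle calcium channel (left) and 6 other calcium channel genes (right) in the 6 libraries, 1 point per library, with lines joining the doses of 1 age from low to high. On the left cacna1sa lies lower in 24H while cacng1 stays level, and on the right cacna1f, cacna2d4a, cacna1g and cacnb2b lie above 24C in 24H and cacnb4b and cacng2b below it.

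Pore-forming Kv genes fell in 10 of 28 in 24H and rose in 3, with a ratio of summed scaled reads of 0.825. The gene kcnd3, which codes for a fast inactivating A-type channel, had 8 reads in 10C, 8 in 10L and 0 in 10H, followed by 72 in 24C, 26 in 24L and 19 in 24H. It was lower at both doses at 24 hpf, with an FC of 0.348 (95% interval 0.213 to 0.552) in 24L and an FC of 0.213 (95% interval 0.121 to 0.356) in 24H, and with 0 reads in 10H it was at least 2.66-fold lower there than in 10C, against a floor of 3 counts. The A-type gene kcnd2 had 22 reads in 24C, 36 in 24L and 33 in 24H and was not called in 24H. Genes of the fast-spiking Kv3 family, a group picked after the values were seen, fell in 4 of 6, beside 16.4% of all genes. These were kcnc2 (16 reads in 24C, 3 in 24H), kcnc3a, kcnc3b and kcnc4, with FCs between 0.151 and 0.41. Among them kcnc3b had 1 read in 10C, 2 in 10L and 13 in 10H, followed by 12 in 24C, 9 in 24L and 4 in 24H. It rose in 10H (FC 13, 1.96 to 553), where 10C had 1 read, and fell in 24H (FC 0.269, 0.0631 to 0.886), both on counts of at most 13 reads. The silent-type subunit gene kcnf1b had 0 reads in 24H and 14 in 24C, and was at least 5.79-fold lower in 24H against the floor.

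The gene kcnq3, whose product forms part of the M-current channels that damp repetitive firing in neurons, had 43 reads in 24C, 44 in 24L and 13 in 24H, and fell in 24H (FC 0.244, 0.12 to 0.461). The related genes kcnq1 and kcnq5b rose. The gene kcnq1, whose channel works in heart and in epithelia, had 20 reads in 10C, 20 in 10L and 9 in 10H, followed by 13 in 24C, 19 in 24L and 74 in 24H, and rose in 24H (FC 4.59, 2.52 to 9.02). The gene kcnq5b had 34 reads in 24C, 54 in 24L and 121 in 24H and rose in 24H (FC 2.87, 1.95 to 4.33). In both the 24L count lay between those of 24C and 24H, without a call. The entry kcnq3 was not matched in RefSeq.

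The ERG-type genes differed in which age was called. The entry kcnh2, which RefSeq now names kcnh6a, had 26 reads in 10C, 34 in 10L and 2 in 10H, followed by 110 in 24C, 115 in 24L and 138 in 24H. It fell in 10H (FC 0.0771, 0.00886 to 0.308) and lay level with the control in 24H (FC 1.01, 0.781 to 1.31). The entry kcnh2l, now named kcnh2a, after the gene for the cardiac repolarizing channel of mammals, had 5 reads in 10C, 15 in 10L and 25 in 10H, followed by 58 in 24C, 103 in 24L and 175 in 24H. It rose in 10H (FC 5.01, 1.88 to 16.8) and in 24H (FC 2.43, 1.8 to 3.33), with the low dose between control and high dose at both ages. The third, kcnh7, had 48 reads in 24C, 34 in 24L and 11 in 24H and fell in 24H (FC 0.185, 0.0865 to 0.361).

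The entry kcna2, named for a delayed rectifier of axons, was the member called in all 4 PCP comparisons, each time on few reads. It had 11 reads in 10C, 2 in 10L and 36 in 10H, followed by 10 in 24C, 0 in 24L and 0 in 24H. It was lower than 10C in 10L (FC 0.153, 0.0165 to 0.702) and higher in 10H (FC 3.28, 1.63 to 7.14), and with 0 reads in both treated libraries at 24 hpf it was at least 3.46-fold lower in 24L and at least 4.14-fold lower in 24H than in 24C. This entry was not matched in RefSeq. The delayed rectifier gene kcnb2 had 267 reads in 24C, 296 in 24L and 289 in 24H and was not called in any PCP comparison.

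Among the Kv auxiliary genes, kcnip1b, which codes for a calcium-binding partner of A-type channels, had 36 reads in 10C, 29 in 10L and 44 in 10H, followed by 299 in 24C, 176 in 24L and 161 in 24H. It fell in 24H (FC 0.434, 0.356 to 0.527) and was not called in 24L (FC 0.567, 0.468 to 0.686). The beta subunit gene kcnab2 had 89 reads in 24C, 77 in 24L and 30 in 24H and fell in 24H (FC 0.272, 0.173 to 0.415). The entry kcnip3l had 14 reads in 24C, 17 in 24L and 3 in 24H and fell in 24H (FC 0.173, 0.0318 to 0.619). The beta subunit gene kcnab1 had 18 reads in 10C, 34 in 10L and 60 in 10H, followed by 70 in 24C, 35 in 24L and 80 in 24H, rose in 10H (FC 3.34, 1.94 to 6.01) and fell in 24L (FC 0.482, 0.312 to 0.733), while in 24H it lay level with 24C (FC 0.921, 0.66 to 1.29). The gene kcnip3, whose product is known in mammals both as a channel partner and as a calcium-regulated repressor, had 450 reads in 10C, 620 in 10L and 297 in 10H, followed by 54 in 24C, 104 in 24L and 90 in 24H. Its counts were high in all libraries of 10 hpf and lower in all of 24 hpf, with an FC of 0.122 (95% interval 0.0905 to 0.163) in 24C against 10C, and no PCP comparison was called.

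Inward rectifier genes taken in by the rule on symbols fell in 2 of 7 in 24H and rose in 0, beside 16.4% and 11.9% of all genes. Outside the rule, among entries looked at afterwards, kcnj3b rose in 24H (20 reads in 24C, 69 in 24H, FC 2.78). The entries kcnj3a, kcnj5, kcnj9 and kcnj12b fell there on few reads. The gene kcnj1, which in mammals codes for the potassium secretion channel of the kidney, had 25 reads in 10C, 41 in 10L and 41 in 10H, followed by 103 in 24C, 53 in 24L and 32 in 24H. It fell at both doses at 24 hpf, just past the threshold in 24L (FC 0.496, 0.349 to 0.697) and by more in 24H (FC 0.25, 0.163 to 0.375). The gene kcnj11, which codes for the pore of the ATP-sensitive channel, had 168 reads in 10C, 125 in 10L and 86 in 10H, followed by 337 in 24C, 256 in 24L and 179 in 24H. In both ages its counts were lower at the higher dose, and it fell in 24H (FC 0.428, 0.355 to 0.514) while 10H did not pass 2-fold (FC 0.513, 0.391 to 0.669). The sulfonylurea receptor gene abcc8, whose product assembles with that pore, had 15 reads in 24H and 105 in 24C (FC 0.115), and the other receptor gene, abcc9, was not called. The duplicate kcnj11l had 150 reads in 24C, 78 in 24L and 213 in 24H and was not called in 24H (FC 1.14, 0.924 to 1.42). The gene kcnj13, which zebrafish pigment pattern mutants carry in altered form, had 265 reads in 10C, 367 in 10L and 760 in 10H, followed by 153 in 24C, 175 in 24L and 349 in 24H. It rose in 10H (FC 2.87, 2.5 to 3.32), and at 24 hpf the higher count in 24H stayed under 2-fold (FC 1.84, 1.52 to 2.24).

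Of the K2P genes, kcnk1 (kcnk1a in RefSeq), whose product forms a weak background channel, had 1002 reads in 10C, 1110 in 10L and 1542 in 10H, followed by 205 in 24C, 236 in 24L and 626 in 24H. It was lower in 24C than in 10C (FC 0.209, 0.179 to 0.243) and rose in 24H (FC 2.46, 2.1 to 2.89), with 24H still below all libraries of 10 hpf in reads. The gene kcnk5 (kcnk5b in RefSeq), which codes for an acid-sensitive channel of epithelia in mammals, had 244 reads in 10C, 389 in 10L and 338 in 10H, followed by 264 in 24C, 276 in 24L and 720 in 24H, and rose in 24H (FC 2.2, 1.91 to 2.54), while 24L lay level with 24C (FC 1.01, 0.848 to 1.2). The gene kcnk18, whose mammalian channel is found in sensory neurons, had 2 reads in 10C, 0 in 10L and 3 in 10H, followed by 67 in 24C, 66 in 24L and 8 in 24H. It was near the floor at 10 hpf, level between 24L and 24C, and fell in 24H (FC 0.0962, 0.0399 to 0.201). Summed over the 6 K2P genes the scaled reads were 1199 in 24H and 598 in 24C, most of them from kcnk1 and kcnk5. Among entries outside the rule, looked at afterwards, kcnk10a rose in 24H (3 reads in 24C, 57 in 24H, FC 15.3). An entry whose best human match is KCNK13 rose there too (11 reads in 24C, 64 in 24H, FC 4.69). The entry kcnk9 fell there (11 reads in 24C, 0 in 24H), and the other K2P entries were not called.

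Calcium-activated channels gave opposite calls for a pore and an auxiliary subunit. The genes kcnma1a and kcnma1b are copies of KCNMA1, which codes for the large-conductance (BK) pore, and kcnmb2 codes for one of its beta subunits. The copy kcnma1b had 8 reads in 10C, 8 in 10L and 7 in 10H, followed by 6 in 24C, 26 in 24L and 66 in 24H, and rose at both doses at 24 hpf (FC 4.18, 1.68 to 12.4 in 24L and FC 8.86, 3.86 to 25 in 24H), where 24C had 6 reads. The copy kcnma1a had 144 reads in 24C, 109 in 24L and 281 in 24H and did not pass 2-fold in 24H (FC 1.57, 1.28 to 1.94). The beta subunit gene kcnmb2 had 14 reads in 10C, 2 in 10L and 15 in 10H, followed by 127 in 24C, 57 in 24L and 16 in 24H. It fell at both doses at 24 hpf (FC 0.433, 0.311 to 0.596 in 24L and FC 0.101, 0.0563 to 0.171 in 24H), and in 10L it had 2 reads against 14 in 10C (FC 0.12, 0.0133 to 0.524). The small-conductance gene kcnn1 and the sodium-activated genes kcnt1 and kcnt2 were not called at 24 hpf with PCP. Related entries that the rule on symbols did not take in, looked at afterwards, were called in part. By RefSeq name, kcnn1a (128 reads in 24C, 48 in 24H, FC 0.302) and kcnn4 (50 reads in 24C, 12 in 24H, FC 0.193) fell in 24H. The entries kcnn2 and kcnn3 were not called there, and kcnt2b rose in 24L (FC 2.53). A further entry without a RefSeq name, whose best human match is KCNMA1, had 1 read in 10C, 17 in 10H, 6 in 24C and 42 in 24H. It rose in 10H (FC 17, 2.67 to 712) and in 24H (FC 5.64, 2.39 to 16.2), against few reads in both controls.

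Of the HCN genes, which code for the pacemaker channels of heart and neurons, hcn2 had 171 reads in 10C, 326 in 10L and 58 in 10H, followed by 235 in 24C, 406 in 24L and 978 in 24H. The low dose gave higher counts than the control at both ages without passing 2-fold (FC 1.61, 1.33 to 1.95 in 10L and FC 1.67, 1.41 to 1.96 in 24L). At the high dose the ages differed in direction: hcn2 fell in 10H (FC 0.34, 0.248 to 0.46) and rose in 24H (FC 3.35, 2.9 to 3.88). The gene hcn4, which marks pacemaker cells, had at most 10 reads in any library, and no difference was detectable at this depth. Of 8 heart markers listed 7 were found, of which 1 rose and 2 fell in 24H. The summed scaled reads of the 7 heart markers were 6659 in 24H and 8632 in 24C. Their part in the hcn2 result was not tested.

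**Figure D5:**
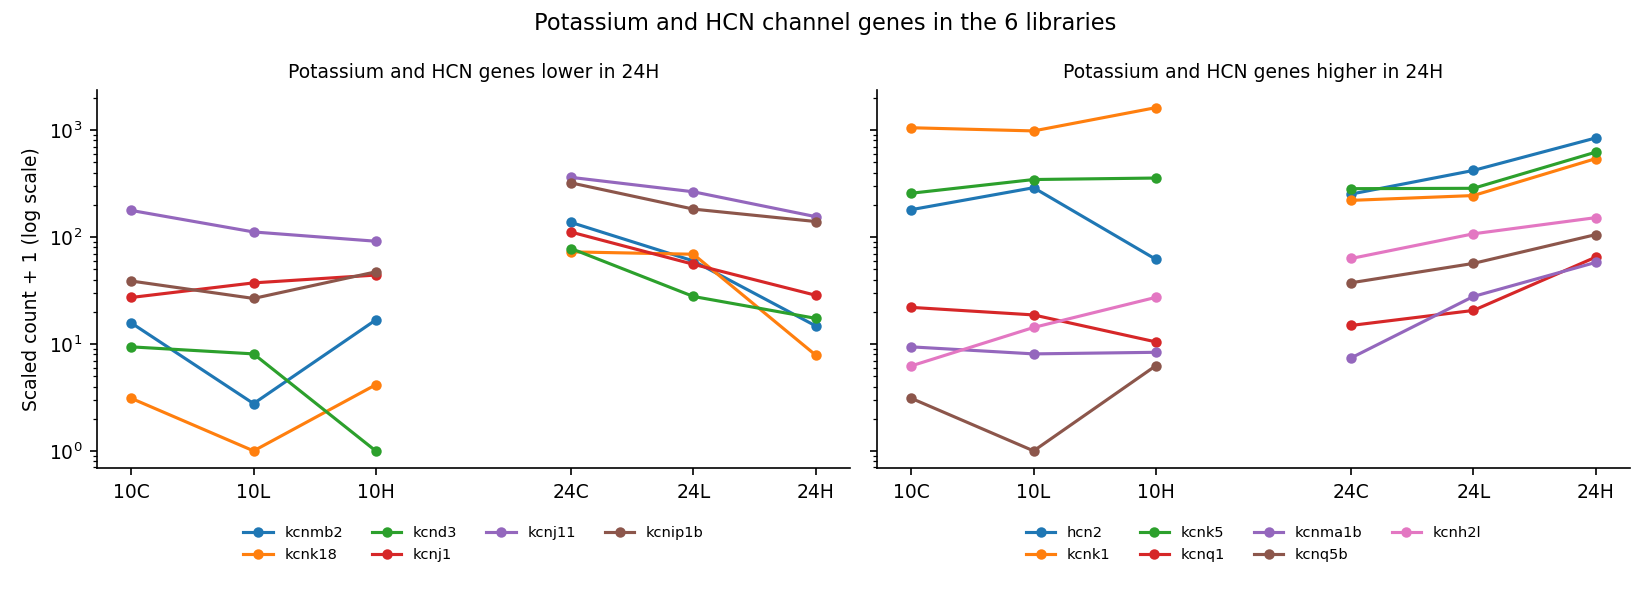
Scaled counts plus 1 (vertical axis, log scale) in the 6 libraries of 6 potassium channel genes that fell in 24H (left) and of hcn2 and 6 potassium channel genes that rose in 24H (right), 1 point per library, with lines joining the doses of 1 age from low to high. The genes were grouped by their call in 24H, so the opposite slopes at 24 hpf follow from the choice, while hcn2 is seen to lie lower in 10H and higher in 24H.

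The members that rose in 24H lay in a library in which most listed markers of the pronephros and the ionocytes, salt-transporting cells of kidney and skin, were higher. Of 10 such markers listed 9 were found, of which 6 rose and 1, slc20a1a, fell (FC 0.314). Of those that rose, 5 (foxi3a, hnf1ba, pax2a, pax8 and slc4a4a) were lower in 24C than in 10C. The summed scaled reads of the 9 were 8716 in 24C, 10193 in 24L and 19050 in 24H. None was at 0 in 24H or 24C. Whether this bears on kcnk1, kcnk5 or kcnq1, whose mammalian counterparts work in such epithelia, was not tested. The kidney channel gene kcnj1 went the other way and fell in 24H (FC 0.25, 0.163 to 0.375), and its relation to these markers was not tested either.

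Genes of 10 neighbouring families give the setting for these values. For these families and for the marker lists, the shares over all genes in 24H were 16.4% fallen and 11.9% risen. No family or list was tested against these shares. In 24H genes with transient receptor potential (TRP) symbols rose in 2 of 17 and fell in 5. These 17 include trpc4apa and trpc4apb, which code for TRPC4-associated proteins and not for channels. Of the 2 that rose, 1 was trpc4apb (FC 2.04). In the same library acid-sensing channels fell in 2 of 6, P2X receptors rose in 1 of 9 and fell in 1, and connexins rose in 3 of 17 and fell in 6. Cyclic nucleotide-gated channel genes rose in 1 of 3, and genes of the CLC family of chloride channels and exchangers rose in 1 of 3 and fell in 1. Of 5 notochord markers 2 rose and 0 fell. The genes of store-operated calcium entry (orai1, stim1a, stim1b and stim2) were called in 0 of 4 in 24H by the exact binomial test. Of 13 genes of the Na+/K+-ATPase, the pump that maintains the gradients on which the channels draw, 3 rose and 3 fell. Of these atp1b4, a beta-type gene, had 127 reads in 24H and 1037 in 24C (FC 0.0987).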

How the data were processed

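RNA-seq libraries of whole pooled Tuebingen embryos were made in 6 conditions, with 1 library each. The authors mapped Illumina reads with Tophat to the zebrafish genome (Zv10 in the study's methods, Zv9 in the labels), used the human genome for further annotation, and normalized gene counts by TMM in edgeR. The counting program is not given in the sources used. The deposited signal of a gene is its count times a scaling factor of the library. Dividing by the factor gave whole reads for 100% of values (tolerance 0.001), from 47409208 in 24C to 59864868 in 24H. Of 21228 entries, 11 that merged clone-named transcripts (13.9% to 15.5% of reads) were left out of tests and kept in the scaling.

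Treated libraries were set against the control of their age, and 24C against 10C, by a two-sided exact binomial test on reads given the scaling, over all 21217 genes, with the study's thresholds (2-fold, unadjusted p under 0.05), since DEGseq was not used here. Genes with 0 reads were given bounds against a floor of 3 counts per library. Medians of log2 FC used 1 added to the normalized counts and genes with at least 10 reads on average. Classes followed the symbols. RefSeq (assembly GRCz12tu) matched 92 of the 96 members, 28 of them under another name, and served for names only, since its build differs. The count of a gene with a close duplicate depends on how shared reads were split, which the sources do not say.

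Genes named with values were those the study names, per comparison the 8 called members of highest FC and the 8 of lowest FC (at least 50 reads in the higher library), members called in 3 or more PCP comparisons or in opposite directions in 10H and 24H, and the 3 per class with the most reads, which gave 49. A few results are not reported here. Further members are named to account for a class and were chosen after their values were seen. The members, classes, related families and marker lists were chosen with earlier results of these data known. Alternatives were other scalings, read minimums, an added constant of 10, adjusted p, edgeR's exact test (version 4.0.16) at an assumed coefficient of variation of 0.2 or 0.4, and, added after the data were seen, 79 further entries whose best human match is a channel gene. The test was tried on simulated data. Python 3.11.15, numpy 2.4.6, pandas 2.3.3, scipy 1.17.1, matplotlib 3.10.9 and R 4.3.3 were used.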

Additional observations from a re-analysis of the deposited data

Results flagged for a closer look

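At the high dose 5 of 96 channel genes were called in opposite directions at 10 and 24 hpf (5.21%), beside 405 of all 21217 genes (1.91%). Since these genes were chosen for their opposite calls, the size of the differences and their distance from 0 follow from the choice and are a description. The difference of the log2 FCs (24 hpf minus 10 hpf) is followed by a 95% interval, computed from the reads by a normal approximation, which covers counting error only. For hcn2 it was 3.30 (2.83 to 3.78), with a log2 FC of 1.75 in 24H against 24C and -1.56 in 10H against 10C. For cacnb4b it was -4.31 (-6.06 to -2.57), for cacna1ab -3.60 (-5.28 to -1.92) and for kcnc3b -5.60 (-8.96 to -2.24). These 3 genes had 1 to 4 reads in 10C, so their 10 hpf values rest on few counts. The fifth, kcna2, had 0 reads in 24H and 10 in 24C, 36 in 10H and 11 in 10C, and its difference was not tested.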

How the results depend on the processing

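Depth limited the 10 hpf comparisons, where the median channel gene had 8 to 10.5 reads, and the absence of replicates limited all of them. Among members with at least 10 reads on average 5 rose and 3 fell in 10L and 11 rose in 10H. With Benjamini-Hochberg adjusted p 5 rose in 10L. With a coefficient of variation of 0.4 in edgeR's exact test, 3 rose and 2 fell in 10L, 6 and 3 in 10H, 5 and 15 in 24H, and 3 fell in 24C against 10C. In 24L that test called 0 risen and 2 fallen, beside 3 and 7 by the binomial test at an unadjusted p under 0.05. A further count took in 79 entries whose best human match is a channel gene, a choice made after the data were seen. Over the 96 members and these 79 entries together, 30 rose in 10H, beside 6.69% of all genes. In 24L 8 rose and 12 fell, beside 3.5% and 4.18%. In 24H 52 fell, beside 16.4%, and in 24C against 10C 92 rose and 11 fell, beside 28.6% and 18.2%. These counts have a larger base than those over the 96 members alone. Over members with at least 100 reads on average the median log2 FC was -0.34 in 10H and 1.03 in 24C against 10C, in place of 0.18 and 2.09. Scaling to library totals moved the median of all genes in 10L to 0.11, where it was -0.02 as deposited, with 1053 genes risen and 358 fallen in place of 775 and 507. Of 490 values of named genes under library totals or median-of-ratios factors 489 kept their call status and direction, 0 reversed, and kcnj11l gained a call in 24L. No paired analysis was possible because each condition has 1 library.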
